A study of Mus musculus with 16 samples.

Results

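Blk, Gpr97, Pigz, Neb and Fam221a are 5 genes picked from 8552 named genes because their RNA changed steadily or widely with loss of Sin3A in mouse CD4 T cells kept in IL-7. The choice used the comparison of deficient with sufficient IL-7 cells, so their values there are a description and carry no test. All 5 could be joined to a row of the deposited table, passed the minimum mean of 10 normalized counts in at least 1 group, and are among 6687 named genes tested. They are not the 5 largest changes. By size of the log2 change in IL-7 cells, Blk was 3rd, Gpr97 9th, Pigz 10th, Neb 35th and Fam221a 68th of 6687. The neighbours in that order were Olfr525 (-2.70) above and D630039A03Rik (-2.43) below Blk (-2.50), and Vash1 (-2.13) above Gpr97 and Jdp2 (-2.10) below Pigz. Neb (-1.71) stood between Olfm1 (-1.72) and Gadd45g (-1.70), and Fam221a (1.44) between Loxl2 (1.44) and Lgals3 (-1.43).

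Sin3A is the scaffold of a corepressor complex that carries histone deacetylases. Poly(A) RNA came from purified CD4 T cells of C57BL/6 J mice, 2 months old, that carry Rosa26-CreERT2 +/- and Sin3AF/F. This Cre sits at the Rosa26 locus and acts once tamoxifen is given, so every group holds the Cre and the floxed alleles. The Th17 deficient cells had 6 days of IL-7 with tamoxifen and then 3 days of Th17 polarization, and the Th17 sufficient cells had the same without tamoxifen. The IL-7 deficient cells had 6 days of IL-7 with tamoxifen, and the IL-7 sufficient cells had 6 days of IL-7 alone. Each group holds 4 libraries, given below in this order. They are D3TAM955, D3TAM957, D3TAM959 and D3TAM960 in Th17 deficient cells, D3955, D3957, D3959 and D3960 in Th17 sufficient cells, BASALTAM955, BASALTAM957, BASALTAM959 and BASALTAM960 in IL-7 deficient cells, and BASAL955, BASAL957, BASAL959 and BASAL960 in IL-7 sufficient cells. D3TAM959, D3959, BASALTAM959 and BASAL959 came from female mice and the rest from males. The labels do not say whether libraries whose names end in the same number share a mouse or are separate cultures, so the p-values measure only the spread between these libraries. Tamoxifen and deletion go together in every comparison, and their parts cannot be told apart.

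Blk encodes a Src family kinase known from B cells and also from gamma-delta T cells that make IL-17. Gpr97, also called Adgrg3, encodes an adhesion G protein-coupled receptor best known from granulocytes. Pigz encodes a mannosyltransferase that extends the glycan of glycosylphosphatidylinositol (GPI), the lipid anchor of many surface proteins. Neb encodes nebulin, a giant protein that lies along the actin thin filaments of skeletal muscle. Fam221a is named for sequence similarity. T cells get survival signals from IL-7, and Th17 cells are CD4 helper cells known for secreting IL-17.

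The promoters of 3 members are shown, those with an entry in a RefSeq promoter table, which held none for Blk and Neb. Of the 3, Gpr97 and Pigz were lower and Fam221a was higher in IL-7 deficient cells. Each window runs from 250 bases before to 50 after the start in build GRCm38.p6, on the + strand, at chr8:95017442-95017741 for Gpr97, chr16:31933601-31933900 for Pigz and chr6:49367489-49367788 for Fam221a. Capitals mark the GC box GGGCGG on either strand, so CCGCCC is the same motif.
Gpr97: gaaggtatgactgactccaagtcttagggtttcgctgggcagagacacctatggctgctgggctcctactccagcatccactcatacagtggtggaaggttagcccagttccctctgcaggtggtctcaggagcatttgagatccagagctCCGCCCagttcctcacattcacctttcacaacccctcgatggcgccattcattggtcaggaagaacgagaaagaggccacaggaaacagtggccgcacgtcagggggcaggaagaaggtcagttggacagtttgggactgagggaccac
Pigz: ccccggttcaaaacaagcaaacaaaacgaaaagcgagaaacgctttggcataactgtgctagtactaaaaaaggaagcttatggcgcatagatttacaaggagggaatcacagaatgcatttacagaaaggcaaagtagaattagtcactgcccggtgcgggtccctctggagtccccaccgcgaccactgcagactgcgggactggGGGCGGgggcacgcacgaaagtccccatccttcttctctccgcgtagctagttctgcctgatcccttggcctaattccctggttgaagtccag
Fam221a: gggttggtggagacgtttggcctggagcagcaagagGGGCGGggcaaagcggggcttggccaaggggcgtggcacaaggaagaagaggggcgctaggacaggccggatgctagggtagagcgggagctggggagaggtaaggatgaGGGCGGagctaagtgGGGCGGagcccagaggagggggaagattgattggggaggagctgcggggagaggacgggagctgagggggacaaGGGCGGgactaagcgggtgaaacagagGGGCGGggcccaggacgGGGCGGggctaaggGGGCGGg
The Fam221a window held 7 GC boxes and 68.3% G and C. Those of Gpr97 and Pigz held 1 GC box each, at 55.7% and 52.3% G and C. Among 32851 RefSeq promoter windows of the same length, 35.7% held at least 1 GC box and the median G and C content was 52.7%. None of the 3 windows held CACGTG (an E-box), TTCNNNGAA (the STAT motif), TGTGGT (a RUNX motif), TGANTCA (an AP-1 motif) or TATAAA on either strand, which 7.15%, 8.30%, 16.8%, 7.81% and 13.6% of all windows held. The letters describe these windows only.

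Library totals, as restored, were between 19754526 and 28607517 reads. The deposited counts had lost their decimal points, and each value was restored as whole reads times the value of 1 read, choosing the power of 10 at which libraries of 1 group lie closest together. Sin3a itself had 1727, 1806, 1827 and 1737 normalized counts in Th17 deficient cells and 2020, 2271, 2240 and 1892 in Th17 sufficient cells. It had 2358, 2148, 2164 and 2177 in IL-7 deficient cells and 2761, 2438, 2213 and 2686 in IL-7 sufficient cells, where the groups overlapped. The log2 change was -0.24 ± 0.08 in Th17 cells (SE, n = 4 each, limma with Benjamini-Hochberg adjustment, adjusted p = 0.0110) and -0.19 ± 0.08 in IL-7 cells (adjusted p = 0.188). The labels do not say which exons are floxed, so the gene's summed reads check the deletion only in part. Of 8 tested T cell identity genes, 7 fell in Th17 deficient cells and 0 passed limma in IL-7 deficient cells (1 at an unadjusted p under 0.05), where Cd4 averaged 11461 normalized counts in deficient and 12026 in sufficient cells. Limma called 4.16% of all rows in IL-7 cells. The named genes are all listed by the authors as lower in Th17 deficient cells, so a named gene could not have been found clearly higher in those cells. Limma called 55.5% of the tested named genes lower in that comparison.

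Blk was the gene with the widest spread between libraries and with 1 uncertain value. It had 75.1, 57.2, 106 and 35.6 normalized counts in IL-7 deficient cells and 202, 259, 451 and 746 in IL-7 sufficient cells. As restored, the highest deficient value was under the lowest sufficient one. The means were 68.6 ± 29.9 and 414 ± 245 (SD, n = 4 each), which puts the deficient mean at 16.5% of the sufficient one, and the log2 change was -2.50 ± 0.49 (SE). The digits of BASALTAM960, an IL-7 deficient library, allow 36 reads, as restored, or 360 reads, which would be 356 normalized counts. Powers were chosen by the agreement of each group, and the lower posterior of the 2 IL-7 groups was 0.975. With 356 the deficient mean would be 149 ± 140, the groups would overlap, the log2 change would be -1.68 ± 0.56, and Blk would be 38th by size among named genes. Without that library the log2 change was -2.23 ± 0.51, with 57.2 to 106 normalized counts in the 3 other deficient libraries. The files do not settle which value is right.

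The gene most like Blk over the 16 libraries was Tcrg-C1, a constant segment of the T cell receptor gamma chain. Pearson's r of their log2 values was 0.76 as restored, and 0.93 both with the value of 356 and without the library. Tcrg-C1 had 138, 172, 215 and 581 normalized counts in IL-7 deficient cells and 476, 625, 775 and 1418 in IL-7 sufficient cells. BASALTAM960 was thus the highest of its group for Tcrg-C1 and, as restored, the lowest for Blk. Blk amounted to 6.12% of Tcrg-C1 in that library as restored and would amount to 61.2% at the higher power, against 15.6% to 58.2% in the 15 other libraries. In 14 of 16 libraries Blk lay between 25% and 60% of Tcrg-C1, on the scale of normalized counts that is not per length. Tcrg-C1 has near-identical sister segments, so its own reads may be split between them.

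**Figure D1:**
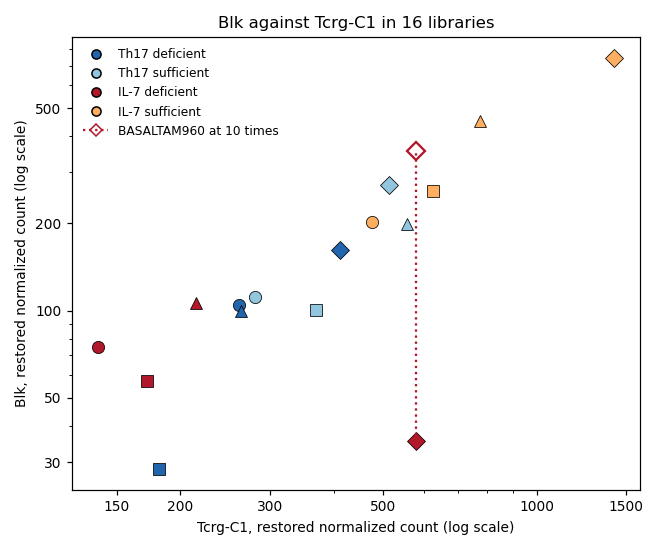
Restored normalized count of Blk (y axis, log scale) against that of Tcrg-C1 (x axis, log scale) in 16 libraries, with colours for the 4 groups, symbols for the library numbers and an open diamond for BASALTAM960 at 10 times its restored Blk value. Most points lie along 1 band, D3TAM957 (28.3) lies at its lower edge, and BASALTAM960 lies below it at 35.6 and near it at 356.

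Markers of gamma-delta and other innate-like T cells had lower means in IL-7 deficient than in IL-7 sufficient cells, as Blk did. Of 13 listed markers 9 were joined. Tcrg-C1 fell in IL-7 deficient cells, with a log2 change of -1.69 ± 0.39 (SE, n = 4 each, limma adjusted p = 0.0180). Over the 9 joined markers the summed normalized counts were 1307, 1491, 1631 and 4892 in IL-7 deficient cells and 3318, 4066, 5232 and 11170 in IL-7 sufficient cells, 7 of the 9 on their most probable powers of 10. The highest libraries of the 2 groups were BASALTAM960 and BASAL960. In Th17 cells the same sum ran from 4931 to 7583 in deficient and from 7623 to 9702 in sufficient cells. The 2 groups of sums did not overlap there, with the deficient one lower, a direction the naming fixed, while the Blk groups overlapped in Th17 cells. Cd163l1 and Sox13, markers of gamma-delta T cells, were among the 9 and were at 0 in no library. Their means were 235 ± 208 and 60.6 ± 58.0 in IL-7 deficient and 637 ± 423 and 117 ± 101 in IL-7 sufficient cells (SD, n = 4 each). Both rest on their most probable powers of 10, and for both the 2 groups overlapped. The part of these markers in the Blk values was not tested. In bulk RNA, fewer cells of a type and less RNA per cell cannot be told apart.

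B cell markers did not pass the test in IL-7 cells, with 0 of 4 tested markers called by limma, 2 of them at an unadjusted p under 0.05. Limma called 4.16% of all rows in that comparison. Cd79a, part of the B cell receptor, averaged 70.2 ± 10.1 in IL-7 deficient and 105 ± 31.0 in IL-7 sufficient cells, and Bank1 31.98 ± 2.62 and 70.4 ± 18.4 (SD, n = 4 each). Ighm, the mu heavy chain, averaged 13919 ± 298 and 11360 ± 1891, and Cd72 averaged 916 ± 81.1 and 854 ± 93.2. The sum over the 13 joined B cell markers ran from 16084 to 17719 in IL-7 deficient and from 14936 to 16084 in IL-7 sufficient cells, 9 of them on their most probable powers of 10. Ighm made up most of that sum. Except for Ighm and Cd72, every joined marker had a lower mean in IL-7 deficient cells. Ms4a1 averaged 28.0 ± 24.3 and 58.3 ± 22.7, and Cd79b 32.2 ± 21.5 and 59.7 ± 39.3, both on their most probable powers. The part of these markers in the Blk values was not tested.

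Gpr97 was lower in every IL-7 deficient library than in any sufficient one. It had 39.0, 37.0, 66.0 and 66.2 normalized counts in IL-7 deficient cells and 153, 208, 258 and 292 in IL-7 sufficient cells. The means were 52.0 ± 16.3 and 228 ± 60.6 (SD, n = 4 each), a log2 change of -2.12 ± 0.31 (SE). The highest deficient library stood far below the lowest sufficient one. Among granulocyte and macrophage markers 18 were listed, 2 were joined and 0 were settled. Their sum was 31.2 to 69.2 in IL-7 deficient and 30.4 to 58.3 in IL-7 sufficient cells, with Cxcr2 at 0 in 3 deficient libraries. Fcgr3 made up most of it, with means of 45.2 ± 16.6 and 39.9 ± 9.65 (SD, n = 4 each). Cxcr2 averaged 0.95 ± 1.90 and 5.19 ± 5.01 there, and 8.59 ± 7.57 in Th17 deficient and 47.2 ± 25.8 in Th17 sufficient cells. The part of these markers in the Gpr97 values was not tested.

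Pigz had 35.2, 25.5, 49.5 and 40.5 normalized counts in IL-7 deficient cells and 174, 129, 183 and 167 in IL-7 sufficient cells. The groups did not overlap, and the deficient mean of 37.7 ± 10.0 was 23.1% of the sufficient mean of 163 ± 24.0 (SD, n = 4 each). The log2 change was -2.11 ± 0.20 (SE). The deficient values rest on 29 to 54 reads per library and the sufficient ones on 162 to 217.

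Neb had 206, 173, 213 and 210.5 normalized counts in IL-7 deficient cells and 689, 579, 621 and 749 in IL-7 sufficient cells. The deficient libraries spread little around 201 ± 18.4 and the sufficient ones around 660 ± 74.7 (SD, n = 4 each), with no overlap. The log2 change was -1.71 ± 0.20 (SE).

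Fam221a went the other way. It had 467, 489, 404 and 335 normalized counts in IL-7 deficient cells and 213, 155, 155 and 109 in IL-7 sufficient cells. Every deficient library was above every sufficient one, with means of 424 ± 69.1 and 158 ± 42.6 (SD, n = 4 each) and a log2 change of 1.44 ± 0.17 (SE). As restored, the groups of all 5 members were apart in IL-7 cells, as for 14.1% of the 13784 tested rows. Limma called 4.16% of rows, and nothing is read from the members here because they were chosen on this comparison.

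**Figure D2:**
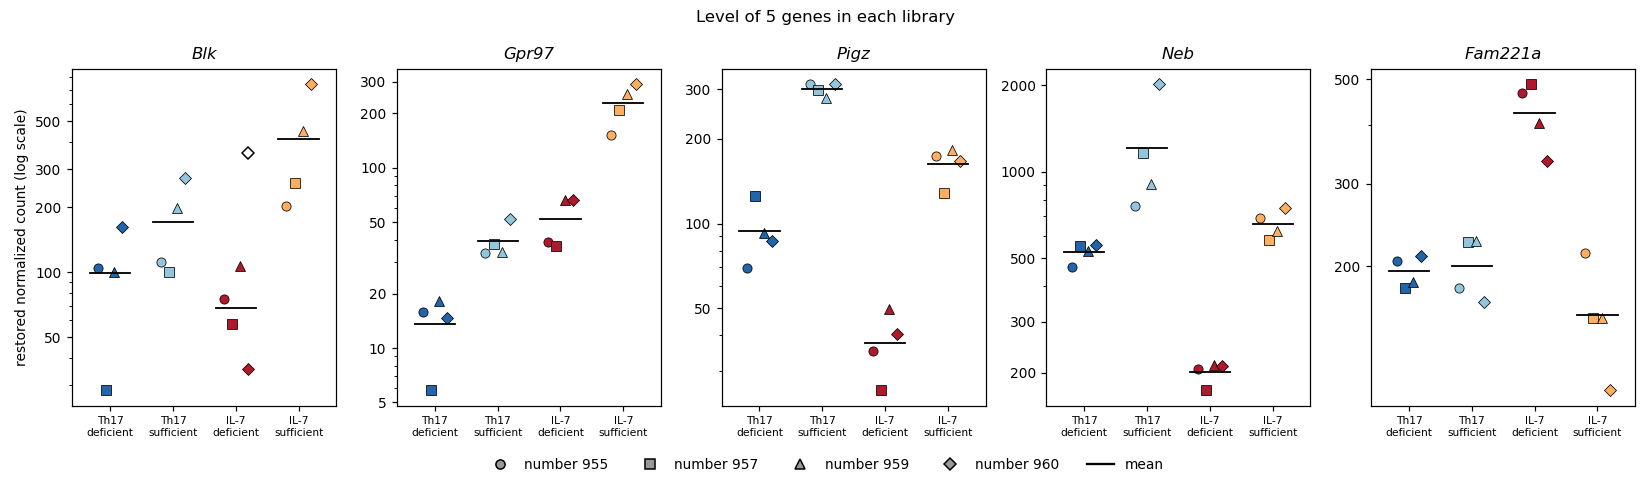
Restored normalized count (y axis, log scale) of the 5 genes in each of 16 libraries by group (x axis), with symbols for the library numbers and a line for the mean of 4. The open diamond is Blk in BASALTAM960 at 10 times its restored value. Fam221a is the only panel in which the IL-7 deficient libraries, at 335 to 489, stand above the IL-7 sufficient ones, at 109 to 213.

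In Th17 cells the deletion comparison was not used to choose the members. Here 3 of 5 members fell, Gpr97, Pigz and Neb, while Blk and Fam221a did not pass the test. Limma called 29.3% of all rows lower in Th17 deficient cells and 55.5% of the named rows lower, and the groups lay apart with the deficient one lower in 23.9% of all rows. A share of 3 in 5 is near that of named genes, and the direction was fixed because the authors list every named gene as lower.

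Pigz had 69.4, 126, 93.0 and 87.0 normalized counts in Th17 deficient cells and 314, 298, 279 and 313 in Th17 sufficient cells. The groups did not overlap, with a log2 change of -1.70 ± 0.20 (SE, n = 4 each, limma adjusted p = 1.1e-06). The sufficient libraries were close together, with an SD of 5.41% of the mean.

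Gpr97 was low throughout Th17 cells. It had 15.8, 5.83, 18.2 and 14.6 normalized counts in Th17 deficient cells, on 7 to 19 reads, and 33.6, 37.8, 33.9 and 51.9 in Th17 sufficient cells, on 34 to 46 reads. The groups did not overlap, and the log2 change was -1.54 ± 0.31 (SE, n = 4 each, limma adjusted p = 0.00036). The pseudocount of 1 draws a change at this level towards 0.

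Neb had 466, 553, 531 and 556 normalized counts in Th17 deficient cells and 758, 1161, 910 and 2023 in Th17 sufficient cells. The groups did not overlap, and D3960 stood above the others. The log2 change was -1.10 ± 0.20 (SE, n = 4 each, limma adjusted p = 0.000151).

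Blk had 105, 28.3, 99.7 and 162 normalized counts in Th17 deficient cells and 112, 100.2, 199 and 272 in Th17 sufficient cells. The groups overlapped, and the log2 change of -0.90 ± 0.49 did not pass (SE, n = 4 each, limma adjusted p = 0.123). Without D3TAM957, the lowest of the Th17 deficient libraries, it was -0.40. Tcrg-C1 was at 279 ± 95.6 in Th17 deficient and 430 ± 128 in Th17 sufficient cells (SD, n = 4 each), a log2 change of -0.63 that did not pass either (limma adjusted p = 0.172). The powers of 10 of Blk in Th17 deficient cells had a posterior of only 0.689 and were settled by the authors' fold change.

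Fam221a had 206, 180, 185 and 210 normalized counts in Th17 deficient cells and 180, 225, 227 and 168 in Th17 sufficient cells. The groups overlapped, with a log2 change of -0.03 ± 0.17 (SE, n = 4 each, limma adjusted p = 0.912). Its deletion effect in Th17 cells minus that in IL-7 cells was -1.47 ± 0.25 on the log2 scale, against 1.596 ± 0.69 for Blk, 0.58 ± 0.44 for Gpr97, 0.41 ± 0.28 for Pigz and 0.61 ± 0.29 for Neb. The difference for Blk was 0.77 with the value of 356 in BASALTAM960 and 0.93 without the 4 libraries whose names end in 960. That for Gpr97 was 0.91 without D3TAM957, and that for Pigz ran from 0.19 to 0.55 with libraries left out. These differences contain the comparison that chose the members and carry no test. The authors' deposited table gives log2 fold changes of -0.79 for Blk, -1.53 for Gpr97, -1.68 for Pigz, -1.20 for Neb and -0.04 for Fam221a in Th17 cells. Those values served to join names to rows and are no second measurement.

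**Figure D3:**
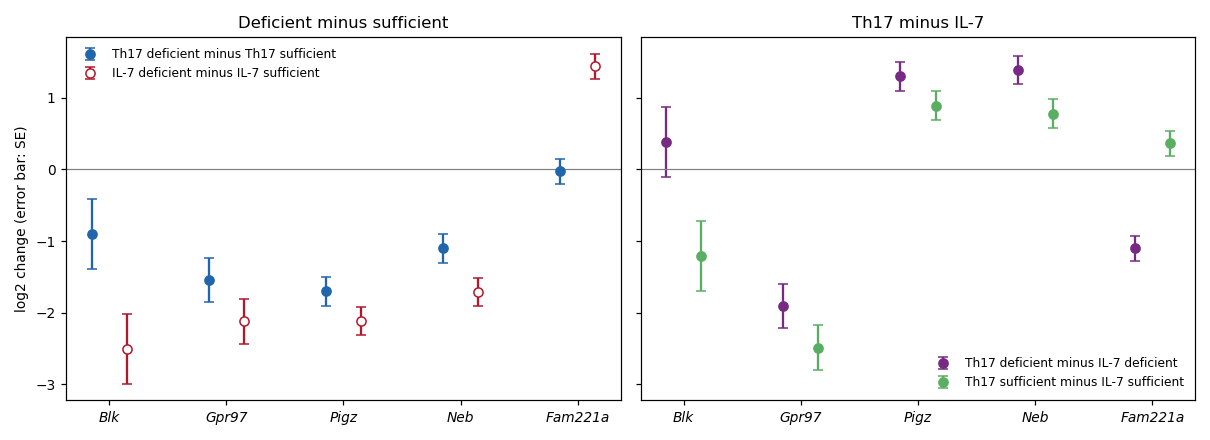
Log2 change of each gene (y axis, error bars SE) for deficient minus sufficient cells in Th17 and in IL-7 cells (left panel) and for Th17 minus IL-7 cells in deficient and in sufficient cells (right panel). Open symbols mark the comparison that chose the genes. Fam221a is near 0 in Th17 cells (-0.03) and at 1.44 in IL-7 cells.

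Polarization moved the members in different directions. These comparisons share the IL-7 libraries on which the choice was made, the deficient and the sufficient ones in turn. The choice favours a rise of Blk, Gpr97, Pigz and Neb and a fall of Fam221a in deficient cells, and the reverse in sufficient cells. The p-values of these comparisons are therefore a description and no independent test. In deficient cells 4 of 5 members passed, where limma called 78.4% of rows, 37.8% higher and 40.6% lower. Pigz and Neb were higher in Th17 than in IL-7 deficient cells (log2 changes 1.30 ± 0.20 and 1.39 ± 0.20, SE, n = 4 each, limma adjusted p = 8.8e-06 and 4.9e-06). Gpr97 and Fam221a were lower (-1.91 ± 0.31 and -1.10 ± 0.17, limma adjusted p = 1.8e-05 and 1.3e-05). Blk did not pass (0.39 ± 0.49, limma adjusted p = 0.477), and its sign turned to -0.44 with the value of 356 in BASALTAM960, and to -0.20 without the 4 libraries whose names end in 960.

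In sufficient cells 4 of 5 members passed as well, where limma called 77.4% of rows, 37.2% higher and 40.2% lower. The same limit holds here, since the IL-7 sufficient libraries served in the choice. Gpr97 fell by 2.48 ± 0.31 on the log2 scale in Th17 sufficient against IL-7 sufficient cells (SE, n = 4 each, limma adjusted p = 8.1e-07). Pigz and Neb rose by 0.89 ± 0.20 and 0.78 ± 0.20 (limma adjusted p = 0.000512 and 0.00186). Without D3960 the Neb change was 0.50 and still passed. Fam221a, at 0.36 ± 0.17, did not pass (limma adjusted p = 0.0641). Blk fell by 1.21 ± 0.49 (limma adjusted p = 0.0313), but the groups overlapped. Its call was lost without BASAL959 (-1.11), BASAL960 (-0.87), D3955 (-1.05) or D3957 (-0.995). It was lost too without the 4 libraries that share the number of BASAL955 (-1.33) or of BASAL959 (-1.22).

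Set in order by mean, Neb and Pigz were lowest in IL-7 deficient cells, followed by Th17 deficient, IL-7 sufficient and Th17 sufficient cells. The Neb means were 526 ± 42.1 in Th17 deficient, 1213 ± 565 in Th17 sufficient, 201 ± 18.4 in IL-7 deficient and 660 ± 74.7 in IL-7 sufficient cells, and those of Pigz 93.8 ± 23.6, 301 ± 16.3, 37.7 ± 10.0 and 163 ± 24.0 (SD, n = 4 each). Neighbours in the order of Pigz and of Neb did not overlap in any library. Gpr97 averaged 13.6 ± 5.40 in Th17 deficient, 39.3 ± 8.62 in Th17 sufficient, 52.0 ± 16.3 in IL-7 deficient and 228 ± 60.6 in IL-7 sufficient cells, a rising order in which the middle neighbours overlapped. Fam221a was highest in IL-7 deficient cells, and the 3 other groups overlapped, with 195 ± 14.9 in Th17 deficient, 199.9 ± 30.4 in Th17 sufficient and 158 ± 42.6 in IL-7 sufficient cells. For Blk all neighbours in the order overlapped.

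The genes with the most similar pattern were sought among 5748 named, settled rows with a mean of at least 20, by Pearson's r of log2 values over the 16 libraries, which share the 4 groups. Pigz and Neb were each other's nearest genes (r = 0.94), though both were chosen for the same change. After them came Pxmp4 (0.92), a peroxisomal membrane protein gene, and Aim1 (0.91) for Pigz, and Disc1 (0.92) and Fdps (0.91), a gene of isoprenoid synthesis, for Neb. Fdps averaged 320 normalized counts in Th17 deficient, 541 in Th17 sufficient, 194 in IL-7 deficient and 325 in IL-7 sufficient cells, the same order as for Neb, with the middle groups close together.

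Gpr97 was nearest to Il18r1 (0.96), a chain of the IL-18 receptor, and to Ly6g5b and She (0.94 each). Il18r1 averaged 1693 ± 425 in Th17 deficient, 2362 ± 550.2 in Th17 sufficient, 2642 ± 334 in IL-7 deficient and 4944 ± 584 in IL-7 sufficient cells (SD, n = 4 each). Blk followed Tcrg-C1, then Fsd1l (0.75) and Tnip1 (0.74), a partner of the NF-kB inhibitor A20. Fam221a was nearest to Vps72 and Kdm4c (0.81 each), genes of chromatin proteins, and R3hdm2 (0.80), whose log2 changes in IL-7 cells were 0.28, 0.22 and 0.30.

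**Figure D4:**
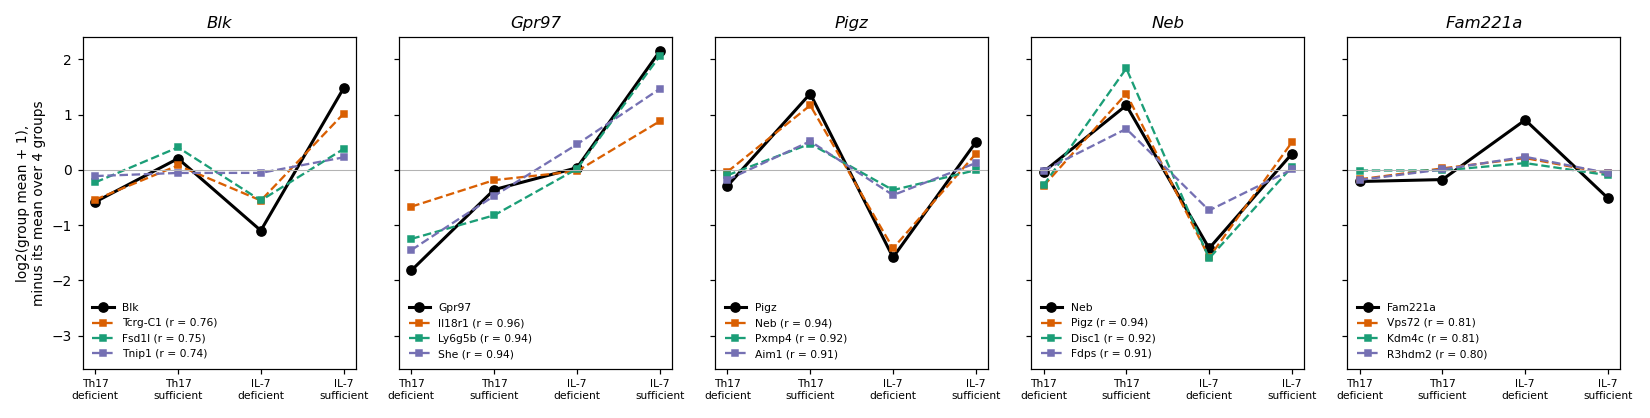
Log2 of the group mean plus 1, minus its mean over the 4 groups (y axis), for each member (black) and the 3 genes most like it, in the 4 groups (x axis). Pigz and Neb share the order of groups with each other (r = 0.94), while the genes nearest to Fam221a change less than it does.

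Genes of the same families were set beside the members. Limma called 55.5% of all named rows lower in Th17 deficient cells, and 4.16% of all rows in either direction in IL-7 cells. At the latter share, few or no calls in a short list say little. Of 14 tested GPI synthesis genes 10 fell in Th17 deficient cells, Pigz among them, with a median log2 change of -0.42 over the 13 others, the same as the -0.42 over all tested named genes. Pgap3 (-1.48), Mppe1 (-1.12) and Dpm1 (-0.96) had the largest changes after Pigz. In IL-7 cells 0 of the 13 others passed in limma, 2 at an unadjusted p under 0.05, with a median of 0.04 against -0.05 over all tested named genes, while Pigz, chosen on this comparison, was at -2.11. Of 7 tested GPI-anchored surface protein genes, which hold no member, 4 fell in Th17 deficient cells (Folr4 -0.88, Thy1 -0.85, Ly6e -0.82 and Cd48 -0.53). In IL-7 deficient cells 1 of the 7 fell, Ly6e (-0.63, limma adjusted p = 0.0249).

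Of 6 tested Src family and regulator genes other than Blk, 5 fell in Th17 deficient cells, led by Cblb (-0.76), a ubiquitin ligase gene that restrains T cell activation, and Ptpn22 (-0.67), a phosphatase gene. In IL-7 cells, where limma called 4.16% of all rows, 0 of the 6 passed, 0 at an unadjusted p under 0.05. Lck, the main Src family kinase of T cells and the only kinase of that family among the 6, averaged 12727 in deficient and 12530 in sufficient cells. Src and Lyn were joined but not settled and had no test. In IL-7 deficient and sufficient cells Src averaged 62.1 ± 10.9 and 121 ± 62.4, and Lyn 35.7 ± 17.3 and 58.7 ± 44.5 (SD, n = 4 each). Of 6 tested adhesion receptor genes other than Gpr97, 2 fell in Th17 deficient cells, Celsr2 (-1.12) and Lphn1 (-0.64), and 0 passed limma in IL-7 cells, 1 at an unadjusted p under 0.05. In Th17 sufficient against IL-7 sufficient cells Cd97 (-2.48), Gpr124 (-1.94), Lphn1 (-1.23) and Celsr2 (-1.01) fell, as Gpr97 did, and Celsr3 rose (0.89). Limma called 77.4% of all rows in that comparison, 40.2% lower. Gpr133 had the largest fall (-3.27), but it reached the minimum mean of 10 in IL-7 cells alone, so the filter fixed its direction.

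Of the sarcomere genes, Tnnc1 (-1.46), Tmod2 (-1.36), Myh3 (-1.35) and Tpm1 (-0.86), a tropomyosin gene, had the largest called changes in Th17 deficient cells and were lower there. Tmod2 and Myh3 reached the minimum mean of 10 in Th17 sufficient cells alone, with means of 7.23 and 5.97 in Th17 deficient against 19.8 and 17.2 in Th17 sufficient cells, so the filter fixed their direction and no count of the list is given. Nebl, a nebulin relative, rose in Th17 sufficient against IL-7 sufficient cells (1.86), as Neb did. In IL-7 cells Nebl (-0.16), Tpm1 (-0.12), Tmod3 (-0.01) and Ckm (0.23) did not pass in limma, nor at an unadjusted p under 0.05. Tnnc1, Tmod2 and Myh3 averaged at most 6.86 in either IL-7 group, which left little room for a call.

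**Figure D5:**
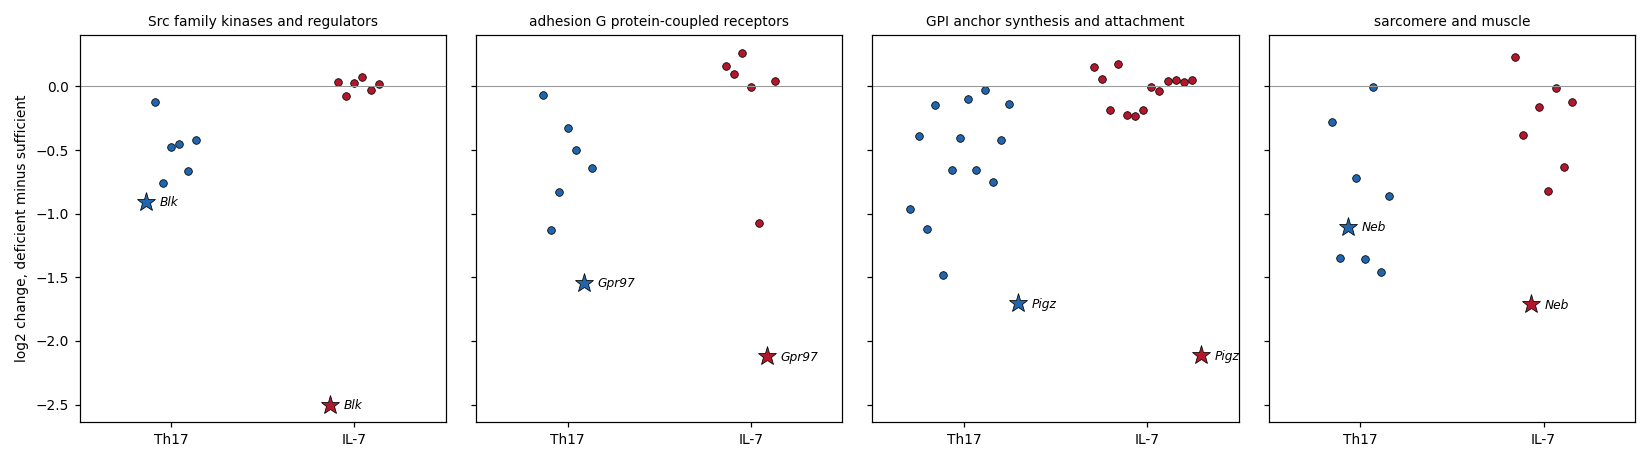
Log2 change of deficient minus sufficient cells (y axis) in Th17 and in IL-7 cells (x axis) for the tested genes of 4 gene families, with stars for Blk, Gpr97, Pigz and Neb. The stars in IL-7 cells are at -2.50 for Blk, -2.12 for Gpr97, -2.11 for Pigz and -1.71 for Neb, and their place below the other genes there was fixed because they were chosen on that comparison.

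Of 10 listed markers of regulatory T cells 7 were joined, and Foxp3 was not among them. The naming kept only genes that the authors list as lower in Th17 deficient cells. All 7 had lower means in IL-7 deficient than in IL-7 sufficient cells, as 4 members did. Of 5 tested, 3 fell in IL-7 deficient cells, Itgae (-1.91), Ctla4 (-0.78) and Tnfrsf18 (-0.56), where limma called 4.16% of all rows in either direction. Folr4 (-0.50) and Ikzf2 (-0.30) did not pass there. All 5 fell in Th17 deficient cells, where 55.5% of named rows were called lower and the naming fixed the direction. The sum over the 7 joined markers, 5 of them settled, was 5932 to 8487 in IL-7 deficient and 9803 to 18216 in IL-7 sufficient cells, with 0 values at 0. It includes Il2ra, unsettled, which averaged 2759 ± 840 and 6361 ± 3009 (SD, n = 4 each). Of the CD8 T cell and NK cell markers 3 were tested, and 0 passed limma in IL-7 cells (0 at an unadjusted p under 0.05), where their sum with 1 unsettled gene ran from 1088 to 1344 in deficient and from 1150.2 to 1437 in sufficient cells. Dendritic cell markers had 2 joined genes, with a sum of at most 60.3 in any library. The part of these markers in the members' values was not tested.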

How the data were processed

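RNA was measured in 16 libraries, 4 per group, grouped by the sample labels. The tools named by the submitters' processing notes are Trim Galore 0.4.4, STAR 2.6, featureCounts, edgeR and DESeq2, with build NCBIM37, and no settings. Per the file headers, the authors deposited, for 8552 named genes, the mean normalized count, the log2 fold change, its standard error, the test's score and the raw and adjusted p-value, all for Th17 deficient against Th17 sufficient cells. The deposited columns of the 16 libraries hold normalized counts without their decimal points, on 17850 rows that are not in the order of the names. A column headed BASAL_AM959 matches no label exactly and was read as BASALTAM959. The columns of per-sample values not used number 0.

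Divided by what 1 read was worth in its library, 99.993% of nonzero values came out as whole reads. Powers of 10 were set by the agreement of each group, which raised 8.54% of nonzero values and favours values that agree within a group. Rows counted as settled at a posterior of 0.95, or 0.99 where 3 or more libraries were raised (14196 rows, 79.5%), and for a joined gene the join settled the Th17 powers whatever their posterior. Names were joined to 8047 genes (94.1%) by the authors' log2 fold change and standard error, to within 1e-06 and with the next row at least 20 times farther, 333 of them on Th17 powers other than the most probable. Of 500 decoys 4 were joined. Tested on simulated data made from these libraries, 99.4% of sets of 4 values were exact. The simulated libraries of a group shared a common mean and a fixed, modest spread. That share therefore does not carry over to genes that spread widely within a group, such as Blk.

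Log2(normalized count + 1) was fitted in limma 3.58.1 (R 4.3.3) over all 16 libraries with a mean trend, for 13784 settled rows with a mean of at least 10 in 1 group or more, and p-values were adjusted by Benjamini-Hochberg over these rows at 0.05. Fold changes are on that scale and understate changes of low genes. No count model was run, since the deposited columns are not counts. The precision of low genes follows from the reads given beside them, and total reads were fewer than the labels state. The members and the gene lists were chosen with earlier results of these data known. The genes named are the 5 members, their 3 most similar genes, their neighbours in size, and up to 4 genes with the largest changes among the called genes of a list. Cell type markers of small lists, unpassed or untested list genes and the adhesion receptor genes beyond the 4 largest changes were named after their values were seen. Alternatives changed the pseudocount, filter, scaling, trend, fit groups, settled rows and replicate block, and left out libraries. The higher power of 10 of Blk was added after seeing the data. A tested marker gene is not reported here.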

Additional observations from a re-analysis of the deposited data

Results flagged for a closer look

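In IL-7 deficient cells, the Neb value of BASALTAM957, at 173 normalized counts, lay apart from the 3 others of its group (206 to 213), with a gap of 0.837 of the group's range, past the 95% limit of Dixon's test. All 4 values are below those of IL-7 sufficient cells. In all 20 groups of 4 values were examined, and chance gives about 1 in 20.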

How the results depend on the processing

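Of the members' tested changes, those of Gpr97, Pigz and Neb kept their direction and their side of the threshold under every alternative run. The polarization change of Blk in sufficient cells, -1.21, was no longer past the threshold without the trend (-1.21, limma adjusted p = 0.0557) and ranged from -1.49 to -0.87 when libraries were left out. Its polarization change in deficient cells reversed to -0.44 with the higher power of 10 in BASALTAM960 and ranged from -0.20 to 0.89 when libraries were left out. The Fam221a change in Th17 cells ranged from -0.14 to 0.073 with libraries left out. Its polarization change in sufficient cells passed with TMM scaling (0.42, limma adjusted p = 0.0307) and ranged from 0.20 to 0.57 with libraries left out, passing without BASAL955 (0.52) or D3960 (0.44). The causes were not tested.

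Rows called in IL-7 cells numbered 283 higher and 290 lower. With all restored rows 465 were called lower. With libraries left out the counts ran from 17 to 350 higher and from 23 to 363 lower, the lowest without the 4 libraries whose names end as that of BASALTAM957. Leaving out BASALTAM955, BASALTAM957, BASALTAM959 or BASAL957 alone gave 119 to 167 higher and 136 to 175 lower, and leaving out BASAL960 gave 176 lower. Rows called for the difference of the deletion effects ran from 1752 to 2997 higher and from 1508 to 2754 lower.

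The labels do not say that a number pairs libraries. Same-numbered libraries deviated from their group means with correlations of 0.0113 to 0.367, above 0.1 in 11 of 24 pairs, and 15 of 16 libraries correlated best with a library of their own number. With the number as a replicate block 444 rows were called lower in IL-7 cells, against 290 without it, and the Fam221a polarization change in sufficient cells passed (0.36, limma adjusted p = 0.0431). The block changed no other call of a member. Gpr97 in Th17 deficient cells rests on 7 to 19 reads, which limits its precision.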
